A study of Mus musculus with 6 samples.

Results

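The Serpina1 and Serpina3 genes of the mouse are 2 families of related copies on chromosome 12 that encode protease inhibitors of the serpin type. The members described here are 10 genes, Serpina1a to Serpina1e and Serpina3c, Serpina3g, Serpina3k, Serpina3m and Serpina3n, of 23291 gene symbols measured. They were chosen by symbol, with the differences between the groups in FPKM (fragment counts divided by gene length and library size) in view, so those differences are given as descriptions. RNA was sequenced from livers of C57BL/6 mice on a high fat (Western) diet for 3 months, alone (the diet group) or with 10 mg of dabigatran etexilate per gram of diet (the dabigatran group), so every mouse was on the fat-rich diet and no group on another diet was compared. Dabigatran etexilate is an oral prodrug of dabigatran, a direct inhibitor of thrombin. The design text gives 3 mice per group, but the tables of dabigatran replicates 0 and 1 were identical, which leaves n = 3 for the diet group and n = 2 for the dabigatran group.

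Serpins are suicide inhibitors. A flexible stretch of the protein, the reactive centre loop, is offered to a protease as bait, and once it is cut the protease is trapped on the serpin and inactivated, so the letters of the loop set which protease is caught. Alpha-1-antitrypsin, the product of the Serpina1 genes, is made by hepatocytes and is best known as the plasma inhibitor of neutrophil elastase. The Serpina3 genes are relatives of human alpha-1-antichymotrypsin, an acute phase protein, and both families have been copied repeatedly in the mouse. In RefSeq (GRCm38.p6), the 5 Serpina1 genes lie on the minus strand of chromosome 12, in the order Serpina1b (from 103728156), Serpina1d, Serpina1a, Serpina1c and Serpina1e (to 103956897). The Serpina3 members follow from Serpina3c (from 104146907, minus strand) over Serpina3g, Serpina3k and Serpina3m to Serpina3n (to 104414334, plus strand).

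The coding stretches of the loops are shown first, because the loop is the part of a serpin that meets the protease. Over the whole coding sequence, pairs of Serpina1 genes differed at 19 (Serpina1a and Serpina1c) to 46 of 1239 aligned bases. In the 66 bases that encode the loop, 15 positions (22.7%) were not the same in all 5 genes, and these are in capitals below. This count is over 5 genes at once and cannot be set against the counts for pairs. The stretches lie in coding exons and overlap exons of no other gene. They are GENCODE M21 transcripts in the build GRCm38, read 5′ to 3′ on the minus strand, at chr12:103853765-103853830, chr12:103728332-103728397, chr12:103895102-103895167, chr12:103763770-103763835 and chr12:103947108-103947173 for Serpina1a to Serpina1e.
Serpina1a: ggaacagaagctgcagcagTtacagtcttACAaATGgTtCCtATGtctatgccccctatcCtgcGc
Serpina1b: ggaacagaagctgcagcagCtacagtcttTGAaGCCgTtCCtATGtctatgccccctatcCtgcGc
Serpina1c: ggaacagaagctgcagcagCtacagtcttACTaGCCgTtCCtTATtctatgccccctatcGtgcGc
Serpina1d: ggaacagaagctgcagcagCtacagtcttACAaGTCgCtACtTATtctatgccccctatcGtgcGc
Serpina1e: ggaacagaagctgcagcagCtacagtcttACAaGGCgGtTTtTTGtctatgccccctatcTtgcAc
Serpina1e had 6 loop bases found in none of the other copies, against 1 to 3 in Serpina1a, Serpina1b, Serpina1c and Serpina1d.

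Serpina3 loops were less alike. In the alignment of the 4 genes below, 44 of 75 columns (58.7%) differed, again in capitals, at chr12:104345269-104345337, chr12:104393769-104393843, chr12:104413448-104413522 and chr12:104241072-104241146 on the plus strand. The loop of Serpina3c is missing because the search by flanking amino acids did not locate it.
Serpina3k: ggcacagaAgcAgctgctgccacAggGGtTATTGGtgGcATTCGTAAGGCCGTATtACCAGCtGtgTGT
Serpina3m: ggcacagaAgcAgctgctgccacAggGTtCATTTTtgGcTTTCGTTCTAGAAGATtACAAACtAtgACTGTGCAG
Serpina3n: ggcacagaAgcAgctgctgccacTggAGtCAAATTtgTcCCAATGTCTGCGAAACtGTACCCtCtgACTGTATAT
Serpina3g: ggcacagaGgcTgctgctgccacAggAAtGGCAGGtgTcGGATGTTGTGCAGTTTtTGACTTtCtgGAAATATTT
Over the whole coding sequence, loop included, Serpina3c, Serpina3k, Serpina3m and Serpina3n also stood further apart than the Serpina1 genes. Serpina3g was not part of that comparison. There were 103 differing bases of 1248 between Serpina3k and Serpina3m and 214 of 1248 between Serpina3k and Serpina3n.

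A short read from a stretch shared by several copies cannot be assigned to 1 of them by its letters. Of the 50-base windows of the longest coding transcript, 74.2% in Serpina1c, 67.4% in Serpina1a and 50.9% in Serpina1d also occur in another annotated gene, against 35.8% in Serpina1b and 35.6% in Serpina1e. With windows of 100 bases the shares were 58.5%, 49.9%, 29.3%, 20.6% and 14.8%. The Serpina3 members shared less, from 4.25% in Serpina3c to 19.1% in Serpina3m with 50 bases, and Serpina3m shared most with Serpina3k. The values of the Serpina1 genes, above all Serpina1a and Serpina1c, are therefore uncertain to the extent that reads were split among copies. In addition, exons of Serpina1c overlap those of B430119L08Rik on the opposite strand, and exons of Serpina3k overlap an annotated transcript of Serpina3m on the same strand.

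**Figure D1:**
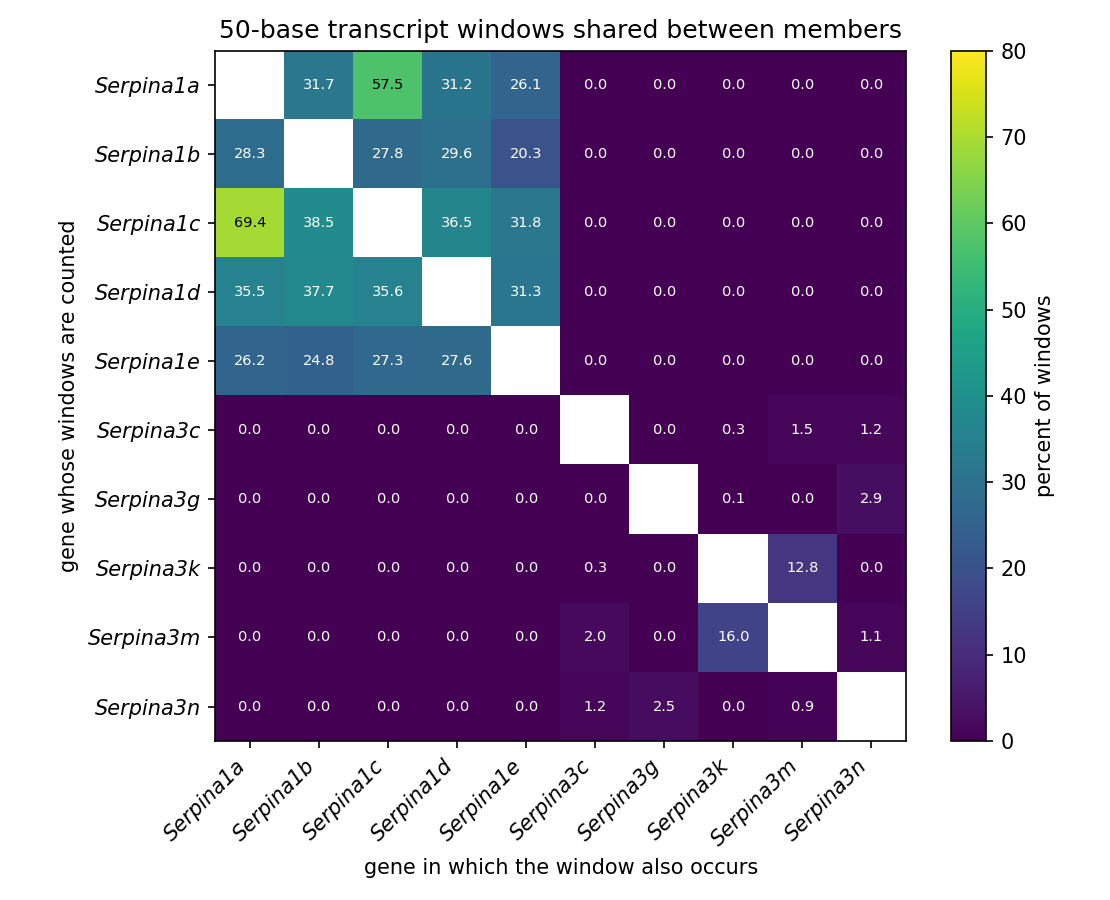
Share of the 50-base transcript windows of each member (rows) that also occur in each other member (columns), in percent. Sharing is high within the Serpina1 block, up to 69.4% of Serpina1c windows found in Serpina1a, and low among Serpina3 members, where Serpina3m and Serpina3k share most.

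Among the libraries, diet replicate 1 stood apart from the other 2 diet libraries for several members. Without it, the log2 difference between the groups was 0.74 for Serpina1a, 0.57 for Serpina1d, 4.23 for Serpina1e, 1.63 for Serpina3k, 1.12 for Serpina3m and 1.61 for Serpina3n. Depth relative to diet replicate 0 was lowest in diet replicate 1 (0.761), close to dabigatran replicate 2 (0.772). It was 0.857 in dabigatran replicate 1 and 0.967 in diet replicate 2. The hepatocyte marker Alb had 18532 to 27246 FPKM over the 5 libraries, overlapping between the groups, and T cell markers summed to at most 2.35 FPKM. Of the 6 hepatocyte markers listed, however, 3 were higher and 1 lower without overlap, where 17.2% of all tested genes did not overlap in each direction. In bulk liver, fewer cells of a type and less RNA per cell cannot be told apart.

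Serpina1e was the Serpina1 gene with the largest difference. It had 418, 2768 and 441 FPKM in diet replicates 0, 1 and 2, and 6474 and 10006 in dabigatran replicates 1 and 2. Both dabigatran values lay above every diet value, and diet replicate 1 lay between the other diet libraries and the dabigatran libraries. On the log2(FPKM + 0.5) scale, the difference was 3.33 ± 0.74 (SE), or 10.1-fold, which is larger than that of 99.9% of the 10247 genes tested. Without diet replicate 1, as given above, it was larger. By level, the gene ranked 127th and 134th of all genes in diet replicates 0 and 2, 19th in diet replicate 1 and 6th in both dabigatran libraries.

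Serpina1b and Serpina1c differed far less. Serpina1b, the most abundant copy in diet replicates 0 and 2, had 2875, 2694 and 2782 FPKM on the diet alone and 2622 and 3352 with dabigatran, so its groups overlapped. Its log2 difference was 0.09 ± 0.21 (SE), and it was -0.18 after quantile normalization. Serpina1c had 1474, 1410 and 1281 FPKM and then 1516 and 1573, without overlap. Its log2 difference was 0.16 ± 0.18 (SE), and it was -0.22 after quantile normalization. The direction of Serpina1b and Serpina1c thus changed with quantile normalization. After division by the library median both stayed above 0, at 0.06 and 0.13.

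Serpina1a and Serpina1d had slightly higher values with dabigatran. Serpina1a had 681, 891 and 643 FPKM in diet replicates 0, 1 and 2 and 1007 and 1214 in the dabigatran libraries, with a log2 difference of 0.60 ± 0.21 (SE). Serpina1d had 1152, 1332 and 1059 FPKM and then 1510 and 1779, with a log2 difference of 0.48 ± 0.20 (SE), which was 0.09 after quantile normalization. Neither gene's groups overlapped, and in both genes diet replicate 1 was the highest diet library. Up to 67.4% of their windows are shared with other genes, as given above.

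The makeup of the summed Serpina1 signal differed as well. Serpina1e gave 6.33%, 30.4% and 7.10% of the sum in diet replicates 0, 1 and 2, and 49.3% and 55.8% in the dabigatran libraries, while the share of Serpina1b was 43.6%, 29.6% and 44.8% and then 19.97% and 18.7%. The sum was 6599, 9094 and 6206 FPKM on the diet alone and 13129 and 17924 with dabigatran. Without Serpina1e, it was 6181, 6326 and 5765 FPKM against 6655 and 7918. Summing sets aside how reads were split among the 5 copies only if each read was counted once. How reads that match several genes were assigned is not given. With the 5 genes entered as 1 row, the log2 difference was 1.09 ± 0.28 (SE). It was 1.26 ± 0.25 (SE) without diet replicate 1.

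**Figure D2:**
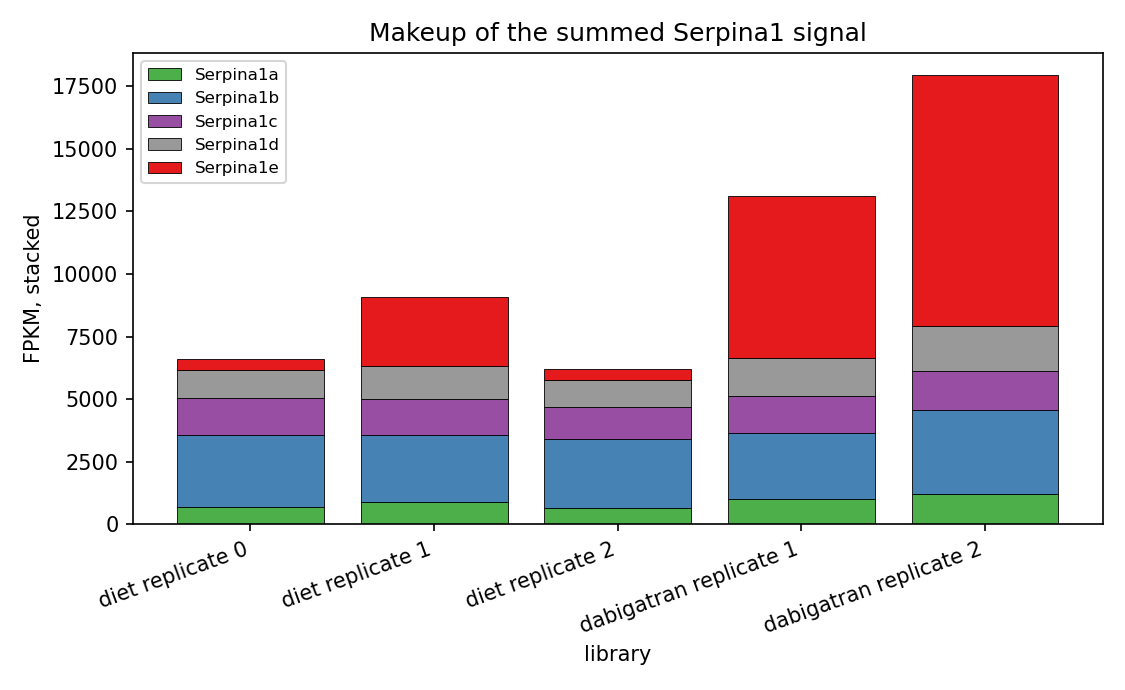
Stacked FPKM of the 5 Serpina1 genes in each library (bars start at 0). Serpina1e spans 418 FPKM in diet replicate 0 to 10006 in dabigatran replicate 2. The other 4 segments sum to 5765 to 6326 FPKM in the diet libraries and to 6655 and 7918 in the dabigatran libraries.

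A stretch upstream of the 5 Serpina1 genes is nearly the same in all of them. Its part in the differences between the groups was not tested. In Serpina1e the stretch stops at position 103956960, further from the annotated gene start (103956897) than in the other copies. The bases between were not compared. The aligned promoter stretch holds no annotated exon. It had 168 of 191 columns alike in all 5 genes, and pairs were 92.6% to 97.9% identical over the bases present in both. Serpina1b and Serpina1e differed at 4 of the 188 bases present in both, the fewest of any pair. Gaps were not counted, and the stretch of Serpina1b holds 190 bases against 188 in Serpina1e. Serpina1a and Serpina1c, both of 188 bases, differed at 5. In Serpina1e, 1 base was found in none of the other copies. Serpina1a, Serpina1b and Serpina1e are printed from RefSeq (GRCm38.p6, minus strand, chr12:103863625-103863812, chr12:103738200-103738389 and chr12:103956960-103957147), with the columns that differ among the 5 genes in capitals.
Serpina1a: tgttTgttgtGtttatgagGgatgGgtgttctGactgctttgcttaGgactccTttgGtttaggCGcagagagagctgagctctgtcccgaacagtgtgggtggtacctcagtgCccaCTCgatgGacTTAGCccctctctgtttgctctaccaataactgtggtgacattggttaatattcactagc
Serpina1b: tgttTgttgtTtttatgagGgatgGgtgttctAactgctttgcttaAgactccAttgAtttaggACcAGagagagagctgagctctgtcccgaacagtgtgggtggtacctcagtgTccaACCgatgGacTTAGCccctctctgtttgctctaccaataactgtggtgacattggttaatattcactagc
Serpina1e: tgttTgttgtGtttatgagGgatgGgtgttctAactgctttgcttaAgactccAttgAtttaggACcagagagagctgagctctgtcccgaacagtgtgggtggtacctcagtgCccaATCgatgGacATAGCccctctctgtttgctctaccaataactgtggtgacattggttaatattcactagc
The motif GTTAAT, part of the site of the hepatocyte factor HNF1, read on both strands, was found in the 300-base promoters of all 5 Serpina1 genes and of Serpina3c, out of the 8 members with a promoter in the table, and in 7.10% of all promoters. The C/EBP core TTGCNNAA was found in Serpina1a, Serpina1b, Serpina1d and Serpina1e (10.8% of all promoters), and the STAT element TTCNNNGAA in Serpina3g (8.30%). Such matches describe these letters and do not show that a factor binds.

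Of the Serpina3 genes, Serpina3k was the most abundant by far. This kallikrein-binding serpin had 3463, 7011 and 3747 FPKM in diet replicates 0, 1 and 2 and 9965 and 12558 in the dabigatran libraries, and it held 91.5% to 95.0% of the summed Serpina3 signal in every library. The groups did not overlap, and the log2 difference was 1.31 ± 0.34 (SE), or 2.49-fold. Its rank among all genes was 12th, 7th and 12th in the diet libraries and 3rd in both dabigatran libraries. As with Serpina1e, the diet library nearest the dabigatran values was diet replicate 1, without which the difference was 1.63.

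Serpina3n, an acute phase serpin known to inhibit granzyme B, followed the same course at a lower level. Diet replicates 0, 1 and 2 had 173, 282 and 142 FPKM and the dabigatran libraries 439 and 524, a log2 difference of 1.33 ± 0.29 (SE), or 2.51-fold. Serpina3k and Serpina3n lay only 0.14 apart (root mean square distance of their centred log2 values over the 5 libraries), the least of any pair involving a Serpina3 member. The distance between them was smaller than that of Serpina3k and Serpina3m (0.64), although Serpina3k and Serpina3m are the closer pair by sequence.

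Serpina3m also had higher values with dabigatran, but its diet libraries were ordered differently. It had 135, 77.2 and 125 FPKM in diet replicates 0, 1 and 2, so that diet replicate 1 was the lowest diet library, and 227 and 357 FPKM in the dabigatran libraries. The log2 difference was 1.37 ± 0.29 (SE), or 2.59-fold. Leaving out diet replicate 1 lowered it to 1.12, while the same step raised the differences of Serpina3k and Serpina3n.

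Serpina3g, an inhibitor of cathepsins known from leukocytes, was the tested member with lower values. Diet replicates 0, 1 and 2 gave 14.2, 6.58 and 10.8 FPKM, and dabigatran replicates 1 and 2 gave 3.56 and 10.4, so the groups overlapped. Multiplied by each library's relative depth, these values correspond to 65, 23, 48, 14 and 37 fragments, the smallest whole numbers that match within 0.0002 of their size. The log2 difference of -0.66 ± 0.45 (SE) rested on dabigatran replicate 1, without which it was 0.05. Neutrophil markers summed to 44.0 FPKM in that library against 2.68 to 19.8 in the diet libraries and 2.90 in dabigatran replicate 2, and their part in the Serpina3g value was not tested.

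Serpina3c was barely detected and was not tested. It was listed at 0 in diet replicates 0 and 1, with 0.275 FPKM in diet replicate 2 and 0.932 and 1.72 in the dabigatran libraries. By the same step these values correspond to 0, 0, 1, 3 and 5 fragments, too few to compare the groups.

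**Figure D3:**
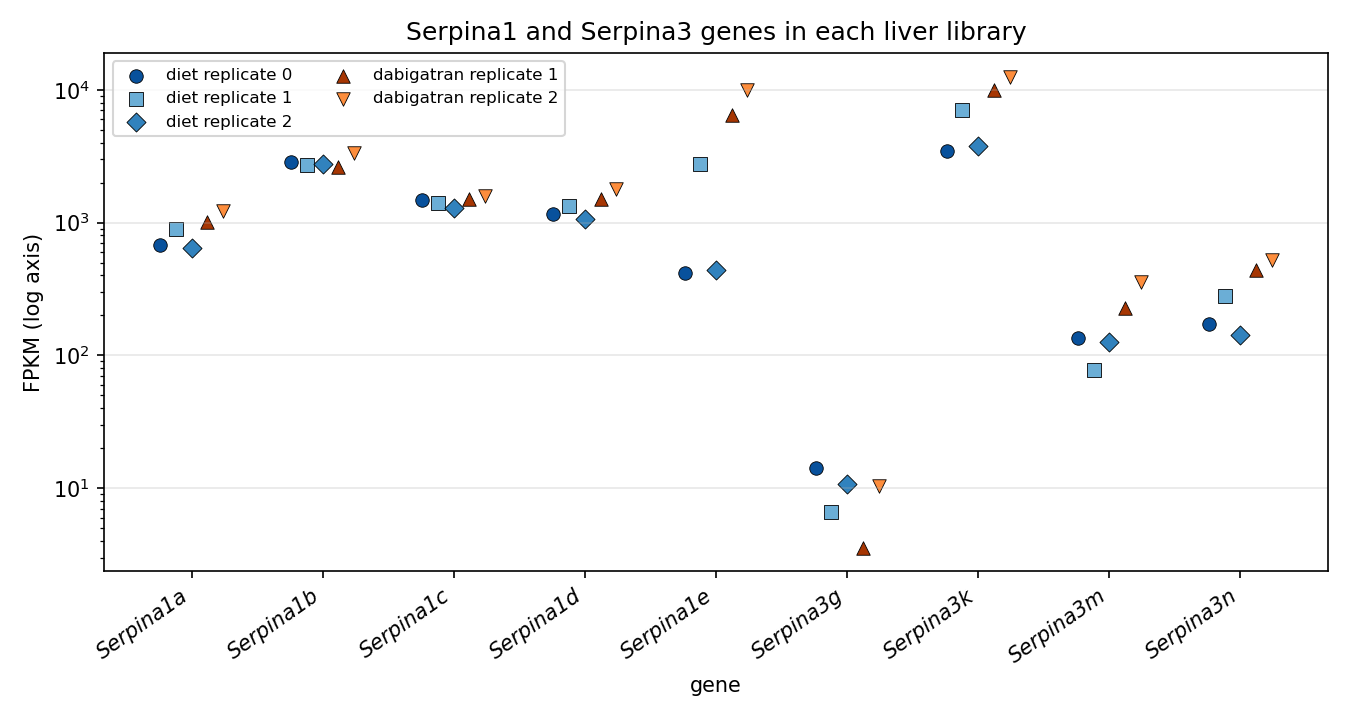
FPKM (log axis) of the 9 tested members in each of the 5 libraries. Serpina3c is left off because it was listed at 0 in 2 libraries. In Serpina1e, Serpina3k and Serpina3n diet replicate 1 (square) sits between the other diet libraries and the dabigatran libraries (triangles), while Serpina1b and Serpina3g overlap between groups.

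In order of level, Serpina3k was the highest member in every library. In diet replicates 0 and 2 it was followed by Serpina1b, Serpina1c, Serpina1d, Serpina1a and Serpina1e, and then by Serpina3n, Serpina3m, Serpina3g and Serpina3c. In diet replicate 1 and in both dabigatran libraries Serpina1e stood second. Serpina1c and Serpina1d were neighbours whose ranges overlapped in each group, at 1281 to 1474 and 1059 to 1332 FPKM in the diet libraries. The 10 members made up 2.26% to 3.56% of all FPKM in the diet libraries, 5.24% in dabigatran replicate 1 and 6.37% in dabigatran replicate 2.

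By the threshold over all genes, none of the 9 tested members was called in either direction (limma, adjusted p between 0.0844 and 0.863), where 0.429% of the 10247 tested genes were called. At an unadjusted p under 0.05 were 6 members and 1640 (16%) of all tested genes. The groups did not overlap in 7 tested members, all of them higher with dabigatran, against 17.2% of all tested genes. Since the members were chosen with this contrast in view, nothing is read from these counts. The median log2 difference was 0.60 over the tested members and 0.02 over all tested genes. Without diet replicate 1, Serpina1e (adjusted p = 8.03e-04), Serpina3n (adjusted p = 0.00962) and Serpina3k (adjusted p = 0.0154) passed, where 2.87% of all tested genes did. Without dabigatran replicate 1, Serpina3m passed (adjusted p = 0.0489), where 2.68% of all tested genes did. No member passed when any of the other 3 libraries was left out, where at most 1 gene was called.

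**Figure D4:**
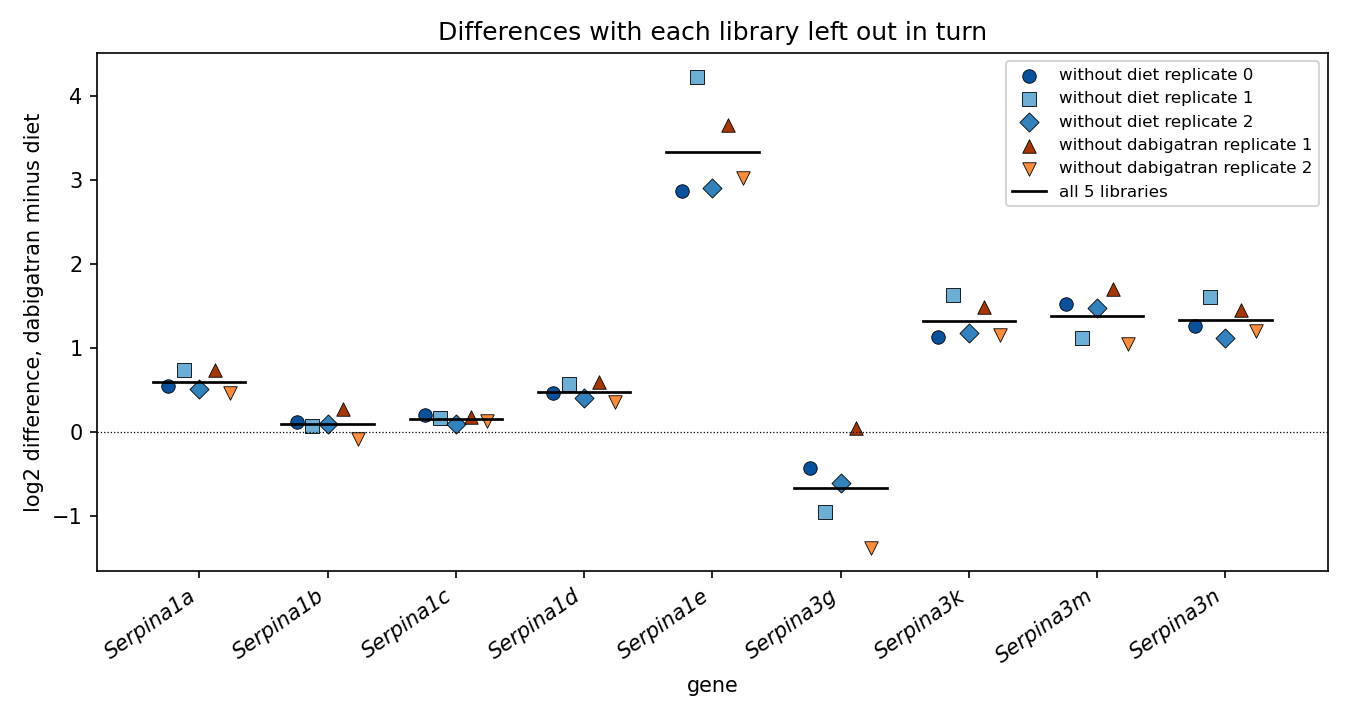
Log2 difference (dabigatran minus diet) of each tested member with 1 library left out (points) and with all 5 libraries (black lines). Serpina1e ranges from 2.86 to 4.23 and Serpina3k, Serpina3m and Serpina3n stay between 1.05 and 1.70, whereas Serpina1b and Serpina3g cross 0.

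The remaining clade A serpins, which include hormone carriers and clotting regulators, did not share a direction. Of 15 other genes of the clade in the files, 7 were tested and 1 was called. This was Serpina6, which encodes the plasma carrier of corticosteroids. It fell with dabigatran, with 58.2, 33.5 and 55.7 FPKM against 13.6 and 6.11 (log2 difference -2.32 ± 0.36 SE, limma adjusted p = 0.0464), where 0.303% of all tested genes were called lower. The call was lost in 8 of 14 alternatives, among them each of a pseudocount of 0.1, no filter on low values, the replicate block and leaving out dabigatran replicate 2, with adjusted p between 0.0135 and 0.265 over all 14. The log2 difference stayed between -2.87 and -1.78. Serpina7, the thyroxine-binding globulin gene on the X chromosome, had 21.3, 5.30 and 33.8 FPKM on the diet alone and 0.428 and 2.61 with dabigatran (adjusted p = 0.101). Serpina4-ps1, an annotated pseudogene between the Serpina1 and Serpina3 blocks, had 17.6, 39.4 and 23.2 FPKM and then 31.8 and 140 (adjusted p = 0.291). The median log2 difference of the 7 genes was -0.18.

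**Figure D5:**
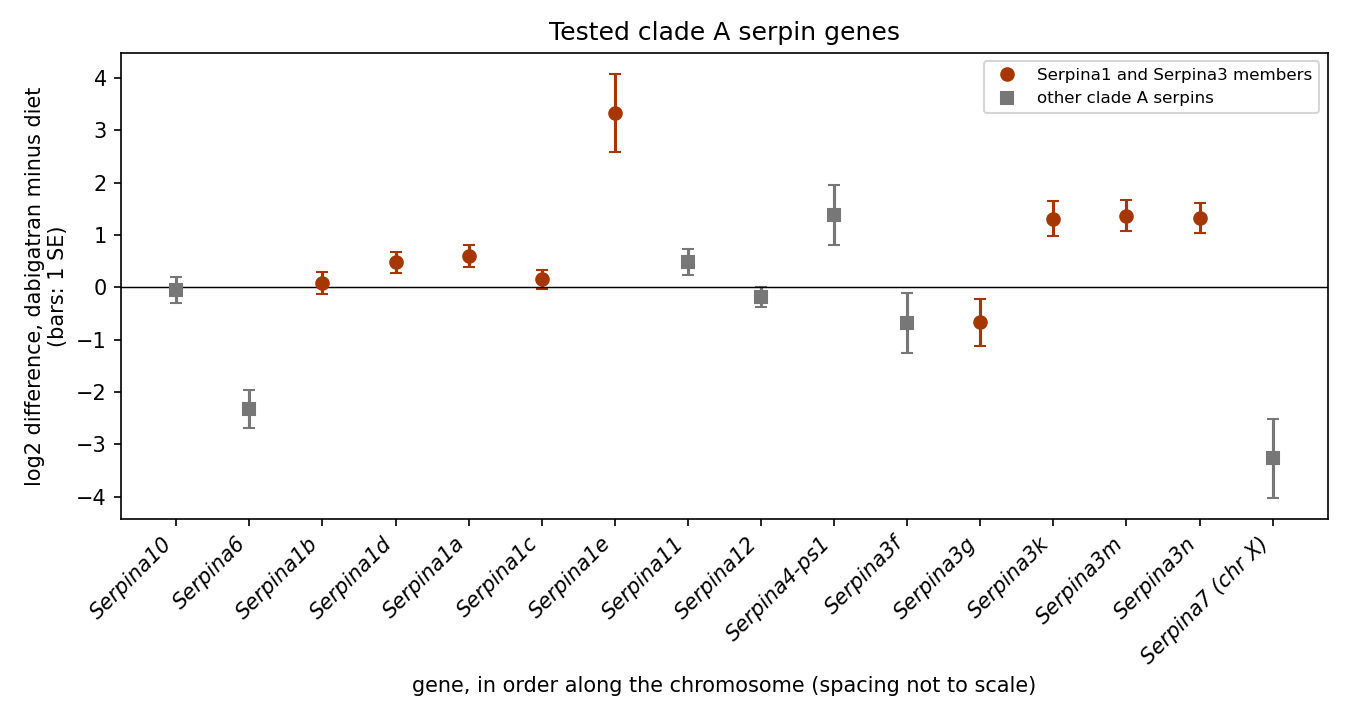
Log2 difference (dabigatran minus diet, bars 1 SE) of the tested clade A serpin genes in their order along chromosome 12, with Serpina7 of the X chromosome last. Serpina1e at 3.33 stands above its neighbours Serpina1c and Serpina11, and Serpina3k, Serpina3m and Serpina3n lie together near 1.3 to 1.4.

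Proteases that serpins of this clade can inhibit were mostly too low to test. The list held 14 genes, among them Mpo, which encodes myeloperoxidase, a neutrophil enzyme that is not a protease. Limma called none of the 4 tested genes (1 at an unadjusted p under 0.05, as were 16% of all tested genes). The neutrophil protease genes Elane, Prtn3 and Ctsg reached at most 2.42 FPKM. Ctsl, which encodes cathepsin L, had 228 ± 41.2 FPKM (SD, n = 3) and 503 ± 178 (SD, n = 2; limma adjusted p = 0.101). The plasma kallikrein gene Klkb1 had 67.6 ± 5.75 FPKM (SD, n = 3) and 50.9 ± 14.6 (SD, n = 2; limma adjusted p = 0.369).

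Genes for transcription factors and cytokine signalling that act on hepatic serpin genes numbered 17 tested of 18, and limma called none (8 at an unadjusted p under 0.05, as were 16% of all tested genes). Their median log2 difference was 0.34, against 0.02 over all tested genes, and the groups did not overlap in 8 with higher and 1 with lower values, where 17.2% of all tested genes did not overlap in each direction. Ghr, the growth hormone receptor gene, had 238 ± 9.92 FPKM (SD, n = 3) and 129 ± 41.3 (SD, n = 2; limma adjusted p = 0.107). Stat3, which relays interleukin-6 signals, had 20.9, 15.1 and 15.0 FPKM on the diet alone and 25.5 and 34.9 with dabigatran (adjusted p = 0.158). Il1r1, an interleukin-1 receptor gene, had 5.48, 6.29 and 4.95 FPKM and then 9.44 and 52.0 (adjusted p = 0.175).

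Folding, export and disposal of secreted serpins in the endoplasmic reticulum were represented by 20 tested genes, of which limma called none (3 at an unadjusted p under 0.05, near the 16% of all tested genes). Their median log2 difference was 0.25. The lectin gene Os9, which marks misfolded glycoproteins for disposal, had 29.4 ± 2.07 FPKM (SD, n = 3) and 43.6 ± 5.94 (SD, n = 2; limma adjusted p = 0.201). Syvn1, the ubiquitin ligase of that route, had 11.6 ± 1.78 and 19.8 ± 7.72 FPKM, and Mcfd2, a cofactor of export, 87.0 ± 0.740 and 115 ± 11.3.

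Genes with a pattern most like that of a member were found by the root mean square distance of centred log2 values over the 5 libraries. For Serpina1e, whose own spread about its mean was 1.91, these were Gm7334 (0.53), the oestrogen sulfotransferase gene Sult1e1 (0.55) and Hist1h4h (0.58). Sult1e1 had 2.25, 16.8 and 3.49 FPKM on the diet alone and 18.0 and 63.2 with dabigatran, so diet replicate 1 was the highest diet library there as well. For Serpina1a, whose spread was 0.34, they were Glt1d1 (0.04), Fnbp4 (0.05) and Stx6 (0.05). Serpina3g, with a spread of 0.65, was closest to Acot2 (0.16), Gmnn (0.16) and Tmem88 (0.17).

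Among markers of other cell types, the summed levels overlapped between the groups for macrophages, neutrophils, B cells, endothelial cells, stellate cells and cholangiocytes. Single markers did differ. Of 5 endothelial markers, 4 were higher and 1 lower without overlap, with 10.4, 9.07 and 7.31 FPKM on the diet and 18.6 and 23.2 with dabigatran for Lyve1. Clec4g had 50.4, 53.6 and 53.3 FPKM and then 37.2 and 25.4. Of 4 tested stellate markers, Rgs5 and Reln were higher and Lrat lower without overlap, where 17.2% of all tested genes did not overlap in each direction. The summed level of 4 adipocyte markers was 28.3 to 151 FPKM on the diet alone and 0 in both dabigatran libraries, nearly all of it from Cfd, with Lep and Plin1 listed at 0 throughout. Cfd was called lower (limma adjusted p = 0.0110), where 0.303% of all tested genes were called lower. The 4 pancreas acinar markers summed to 4.62 to 6.37 FPKM on the diet alone and 3.59 and 3.42 with dabigatran, all of it from Cela1. Of 6 hepatocyte markers, 3 (Apoa1, Hnf4a and Tat) were higher and 1 (Ttr) lower without overlap, again beside 17.2% of all tested genes in each direction, and their sum was 27092 to 29755 FPKM on the diet alone and 29335 and 41186 with dabigatran. The part of these cell types in the members' differences was not tested.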

How the data were processed

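RNA of snap frozen mouse liver was sequenced from TruSeq libraries, per the labels. The authors deposited 1 FPKM value for each of 23291 gene symbols and sample, per the file headers. The submitters' processing notes name, without roles, the builds mm10 and GRCm38 and the tools TopHat2 2.0.4, Cuffdiff, CASAVA and R 2.15.1. How reads that match several genes were assigned is not given in the sources used here. The tables of dabigatran replicates 0 and 1 were identical and counted once, as dabigatran replicate 1. A gene was tested if 3 or more of the 5 libraries reached 1 FPKM. The test was limma 3.58.1 (R 4.3.3, empirical Bayes moderation with a variance trend) on log2(FPKM + 0.5), with group as the sole term, two-sided, with Benjamini-Hochberg adjustment over 10247 genes and a threshold of 0.05. The steps were checked on simulated data. FPKM carries no absolute depth. Relative depth was read from the most common ratio between libraries among genes under 0.3 FPKM. Alternatives were pseudocounts of 0.1 and 1, no filter or 5 FPKM, quantile or median scaling, no variance trend, a replicate block, summed paralogs and leaving out each library. All 10 members are named whatever their p, and of each other list those that passed and up to 3 with the lowest p. Genes of like pattern were taken as the 3 nearest tested genes outside the members, for the members with the highest and lowest difference and for Serpina1a. Members and lists were chosen with earlier results of these data known. Sequences come from RefSeq promoters (GRCm38.p6) and GENCODE M21 transcripts (GRCm38).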

Additional observations from a re-analysis of the deposited data

How the results depend on the processing

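Over 13 alternatives, Serpina1a, Serpina1d, Serpina1e, Serpina3k, Serpina3m and Serpina3n kept a higher value with dabigatran in each. After quantile normalization Serpina1b (-0.18) and Serpina1c (-0.22) turned negative. Leaving out 1 library gave -0.086 to 0.27 for Serpina1b, negative without dabigatran replicate 2, and -1.38 to 0.051 for Serpina3g, positive without dabigatran replicate 1. No scaling moved the median of all genes by more than 0.1. The count of called genes was less stable than the members' differences. Against 13 higher and 31 lower, there were 6 and 17 with a pseudocount of 0.1, 0 and 0 without a filter on low values (1933 genes at an unadjusted p under 0.05 by limma) or without a variance trend (1562), 8 higher with at least 5 FPKM, and 16 lower after quantile normalization. Leaving out 1 library gave 0 to 95 higher and 0 to 199 lower. With 2 dabigatran libraries, leaving out 1 assumes that the other varies like the diet group. The replicate block gave 5 higher and 8 lower and changed no member's call. The deviations of same-numbered libraries had correlations of -0.04 and -0.03 across genes. These cannot show whether numbers mark pairs, because the deviations of the 2 dabigatran libraries mirror each other. In addition, 1 of the 2 tables stands under both replicate 0 and replicate 1. The numbers were not taken as pairs. Beside the 0 members called, 704 genes were higher and 936 lower at an unadjusted p under 0.05. The sums of the Serpina1 and Serpina3 genes without diet replicate 1 were added after seeing the data.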
